A study of Homo sapiens with 8 samples.

Results

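The 10 genes described here encode proteins of the granules of neutrophils, monocytes and their precursors, or mark the precursors that make those granules: MPO, ELANE, PRTN3, AZU1, CTSG, BPI, LYZ, RNASE2, SRGN and MS4A3. They were taken by symbol from the 78932 gene IDs of the deposited count table, and all 10 were among the 24289 genes with enough counts to be tested. RNA was sequenced from sucrose gradient pools of 2 human acute myeloid leukaemia lines to ask how overexpression of OGFOD1, an oxygenase that hydroxylates a proline of the ribosomal protein RPS23, changes the RNA carried by ribosomes. Molm13 carries a KMT2A rearrangement, U937 has monocytic character, and both were grown as lines with no separate cultures described. The groups were OE heavy, OE light, control heavy and control light, each with 1 Molm13 and 1 U937 library, so a group has n = 2 and its replicates are the lines. OE libraries came from cells given OGFOD1 in a lentiviral expression vector, and control libraries from cells whose genotype label is control and whose library names carry "Scr"; what the control cells received is not stated further. All cells were treated with cycloheximide, which holds ribosomes on RNA, before lysis. The heavy pool combined the fractions with 3 or more ribosomes, and the light pool combined free ribonucleoproteins, monosomes and disomes of the same gradient.

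Granule proteins are made in bulk by promyelocytes, which fill the azurophil granules first, and their transcripts fade as the cells mature. ELANE, PRTN3 and CTSG are serine proteases that cut matrix and microbial proteins, and AZU1 is a related protein with no protease activity that kills bacteria and attracts monocytes. MPO makes hypochlorous acid from hydrogen peroxide, BPI binds lipopolysaccharide, LYZ cleaves bacterial peptidoglycan and RNASE2 is a secreted ribonuclease. SRGN is the proteoglycan core on which granule proteins are packed, and MS4A3 is a membrane protein typical of granulocyte and monocyte progenitors. The granule proteins enter the secretory pathway, so their messages are translated on the endoplasmic reticulum.

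The genes lie on several chromosomes, with coordinates on GRCh38 from the GENCODE annotation. AZU1 (ENSG00000172232, chromosome 19, 825097 to 832018), PRTN3 (ENSG00000196415, 840960 to 848175) and ELANE (ENSG00000197561, 851014 to 856247) stand side by side on the plus strand, with 8941 bases between AZU1 and PRTN3 and 2838 bases between PRTN3 and ELANE. CTSG (ENSG00000100448, 24573522 to 24576260, minus strand) and RNASE2 (ENSG00000169385, 20955452 to 20956436, plus strand) are on chromosome 14. MPO (ENSG00000005381) is on chromosome 17, 58269856 to 58280935, minus strand, and BPI (ENSG00000101425) on chromosome 20, 38304123 to 38337505, plus strand. LYZ (ENSG00000090382) is on chromosome 12, 69348341 to 69354234, SRGN (ENSG00000122862) on chromosome 10, 69088106 to 69104811, and MS4A3 (ENSG00000149516) on chromosome 11, 60056587 to 60071128, all on the plus strand. The coding sequences are short, from 148 codons in LYZ to 267 in ELANE, except those of BPI (487 codons) and MPO (745 codons).

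The upstream sequences of 3 genes of the protease family and of MS4A3 are shown as a description of the genes. Whether they bear on the levels in these libraries was not tested. Each is the 250 bases before the RefSeq start on GRCh38.p14, 5′ to 3′ along the gene, and 5 of the 10 genes (PRTN3, AZU1, CTSG, MS4A3 and RNASE2) were matched in the RefSeq promoter table. Capitals mark GAGGAA or its reverse complement, the core of sites for PU.1, the myeloid factor encoded by SPI1. PRTN3 is at chr19:840749-840998 (plus strand), AZU1 at chr19:827587-827836 (plus strand), CTSG at chr14:24576251-24576500 (minus strand) and MS4A3 at chr11:60056415-60056664 (plus strand). RefSeq starts differ from the GENCODE bounds given above. The AZU1 window lies inside the GENCODE gene, and the windows of PRTN3, CTSG and MS4A3 run past their GENCODE starts. Distances below are counted from the RefSeq start.
PRTN3: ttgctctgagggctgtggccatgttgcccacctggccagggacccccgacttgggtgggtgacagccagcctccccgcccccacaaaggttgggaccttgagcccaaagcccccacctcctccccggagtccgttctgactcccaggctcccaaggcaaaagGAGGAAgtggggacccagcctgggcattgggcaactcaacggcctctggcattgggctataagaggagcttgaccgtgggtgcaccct
AZU1: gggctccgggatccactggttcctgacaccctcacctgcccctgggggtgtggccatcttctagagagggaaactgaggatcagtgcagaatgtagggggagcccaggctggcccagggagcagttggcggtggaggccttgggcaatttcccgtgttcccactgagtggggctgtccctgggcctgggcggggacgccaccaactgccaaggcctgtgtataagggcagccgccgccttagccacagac
CTSG: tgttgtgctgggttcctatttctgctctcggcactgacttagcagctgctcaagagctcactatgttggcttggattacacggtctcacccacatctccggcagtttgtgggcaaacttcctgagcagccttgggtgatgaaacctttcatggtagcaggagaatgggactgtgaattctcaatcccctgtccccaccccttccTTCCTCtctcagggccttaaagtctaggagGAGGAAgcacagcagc
MS4A3: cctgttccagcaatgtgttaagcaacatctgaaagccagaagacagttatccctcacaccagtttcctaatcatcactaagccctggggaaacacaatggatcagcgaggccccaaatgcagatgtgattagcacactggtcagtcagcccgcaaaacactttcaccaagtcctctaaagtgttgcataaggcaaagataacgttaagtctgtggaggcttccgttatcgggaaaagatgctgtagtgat
The PRTN3 window held 1 GAGGAA match, which began 88 bases before the start, and the CTSG window held 2, at 16 and 46 bases. The windows of AZU1 and MS4A3 held none. Of 35116 RefSeq windows of this length, 23.6% held the core on either strand. The other letters searched, on both strands, were the TATA box core (TATAA, in 18.9% of windows), TTGNGCAA (a C/EBP site, in 2.27%) and CAACNG (a MYB site, in 27.0%). TATAA lay 31 bases before the start in both PRTN3 and AZU1 and 218 bases before it in RNASE2. TTGNGCAA lay at 62 bases in PRTN3, 111 in AZU1 and 145 in RNASE2, and CAACNG was also found in those 3 windows. The MS4A3 window held none of the 4, and the CTSG window held GAGGAA only. No match overlapped one of another motif in these windows. The motifs were picked after the sequences had been read, and a match is a run of letters and not a binding site.

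Before the results, 2 facts about the libraries bear on all of them. Every library labelled OE had less OGFOD1 than its control: 25.3 against 44.4 CPM (counts relative to the library total, scaled by TMM) in the heavy and 16.7 against 33.0 CPM in the light Molm13 pair, and 12.4 against 60.2 and 10.1 against 49.8 CPM in the U937 pairs. Over both pools this was -1.60 on the log2 scale (SE 0.30, edgeR quasi-likelihood adjusted p = 0.0178), so every genotype comparison goes by labels that the target gene contradicts, and "libraries labelled OE" is meant wherever OE is written. The Molm13 control light library stood apart from the other light pools. Mitochondrially encoded RNA took 2.49% of its counts, against 19.9% to 23.3% in the other light pools and 0.360% to 0.941% in the heavy pools, and it correlated at 0.963 to 0.966 with the heavy pools across genes, against 0.874 to 0.936 for the other light pools. The shallowest library was Molm13 OE heavy, with 25741930 counts, and the deepest was Molm13 control light, with 89373133. The lowest count of any granule gene was 306, for MPO in Molm13 OE light, which is 6.37 CPM with exact 95% Poisson limits of 5.67 to 7.12, for counting error only. Of 7 myeloid markers 6 reached 1 CPM in every library, with FLT3, CD33, CSF3R and CEBPA among them, summing to 719 to 1340 CPM under OE and 540 to 845 CPM under control, while ANPEP did not reach it. No erythroid or megakaryocyte marker of 7 reached 1 CPM, their sums being 0.119 to 0.350 CPM under OE and 0.0540 to 0.692 CPM under control. Between Molm13 and U937 0 of 24289 genes passed with edgeR and 2862 had an unadjusted p under 0.05, while edgeR with no filter on low counts called 412, DESeq2 303 and limma voom 1.

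Per kilobase of exon, the granule genes spanned a wide range of levels. By the median over 8 libraries of CPM per kb, PRTN3 stood at 5610 and SRGN at 3523, followed by ELANE at 1472, AZU1 at 1061 and RNASE2 at 936. LYZ followed at 243 CPM per kb, CTSG at 130, MS4A3 at 12.9, MPO at 6.90 and BPI at 6.83. PRTN3 and SRGN held ranks 1 and 2 in every library and changed places between them. ELANE, AZU1 and RNASE2 shared ranks 3 to 5, LYZ and CTSG ranks 6 to 8, and MS4A3, MPO and BPI ranks 7 to 10, so the neighbours within each of these sets were not separated by their spread across libraries. CTSG and MS4A3 changed places in U937 control light. Together the 10 genes took 3.11% of all counts in Molm13 OE heavy, 0.739% in Molm13 OE light, 1.76% in Molm13 control heavy and 1.81% in Molm13 control light. The shares were 2.11% and 0.425% in the U937 OE heavy and light pools and 2.20% and 0.710% in the U937 control heavy and light pools. PRTN3 and SRGN made up most of this, PRTN3 46.0% of the granule gene counts in Molm13 OE heavy and SRGN 56.0% in U937 OE light.

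**Figure D1:**
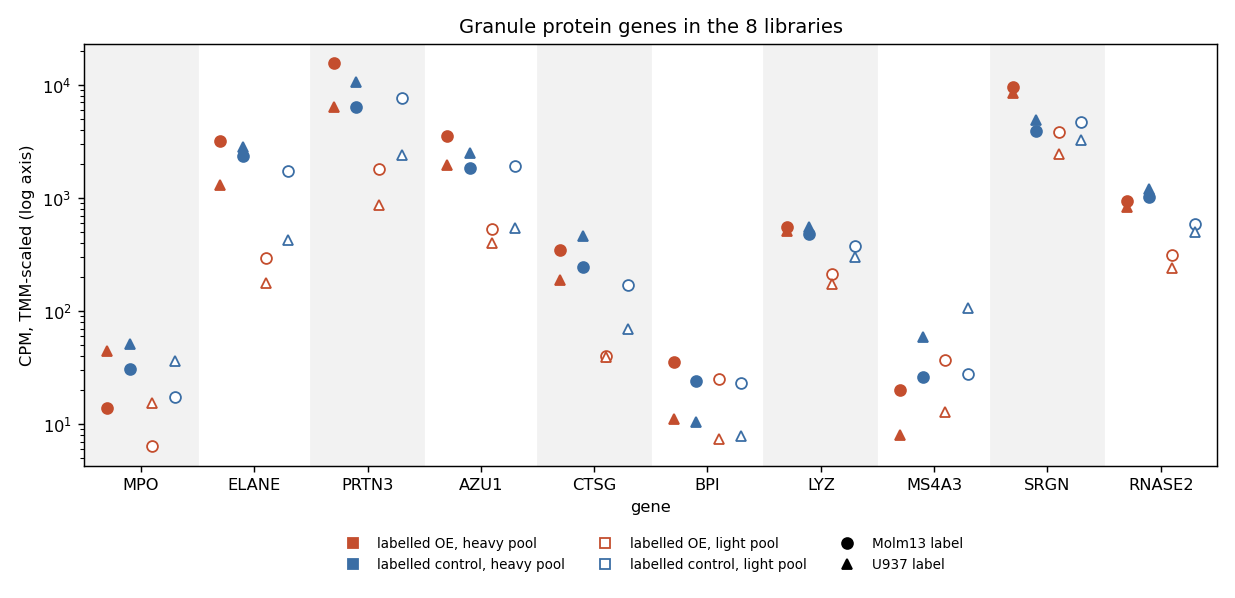
Levels of the 10 granule genes in each of the 8 libraries, as CPM scaled by TMM on a log axis, with each point 1 library. PRTN3 and SRGN sit at or above 863 CPM in every library, and MPO, BPI and MS4A3 at or below 107 CPM.

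The heavy pools were set against the light pools to ask which granule messages sat on polysomes. The granule genes were mostly richer in the heavy pools: 7 of 10 were higher (edgeR quasi-likelihood test, adjusted p under 0.05), none was lower, and their median log2 fold change was 1.20. In the same fit 28.6% of the 24289 tested genes were called, 15.8% as higher and 12.8% as lower, and the median over all genes was -0.04. Of all calls 55.3% were higher, and 39.7% with upper-quartile scaling, which called the same 7 granule genes. CPM compares a gene's share of the RNA within each pool, so a higher value is a larger share and not more molecules per cell; in such bulk RNA, fewer cells that make a message and less of it per cell cannot be told apart.

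Among the proteases, ELANE, the neutrophil elastase that is mutated in congenital neutropenia, had 3192 against 295 CPM in the heavy and light pools of Molm13 OE, 2335 against 1718 CPM in Molm13 control, 1308 against 178 CPM in U937 OE and 2840 against 422 CPM in U937 control. The heavy pool was higher in 4 of 4 gradients, and the Molm13 control light library was the highest of the light pools, above the U937 OE heavy pool, so the pools overlapped. The fitted value was 2.39 on the log2 scale (SE 0.41, adjusted p = 0.0018). PRTN3, proteinase 3, the autoantigen of granulomatosis with polyangiitis, had 15560 against 1797 CPM in Molm13 OE, 6429 against 7635 CPM in Molm13 control, 6430 against 863 CPM in U937 OE and 10610 against 2422 CPM in U937 control. Heavy exceeded light in 3 of 4 gradients, and the ranges of the pools overlapped through Molm13 control, whose light pool exceeded its heavy pool. The fitted value was 2.05 (SE 0.46, adjusted p = 0.00618). CTSG, cathepsin G, a protease with chymotrypsin-like cleavage, had 346 against 40.0 CPM in Molm13 OE, 243 against 170 CPM in Molm13 control, 188 against 39.3 CPM in U937 OE and 464 against 70.2 CPM in U937 control. The heavy pools did not overlap the light pools, and the fitted value was 2.19 (SE 0.36, adjusted p = 0.00149). AZU1, also named azurocidin, had 3560 against 534 CPM in Molm13 OE, 1850 against 1932 CPM in Molm13 control, 1947 against 400 CPM in U937 OE and 2524 against 546 CPM in U937 control. Its heavy pool was higher in 3 of 4 gradients, with overlap through Molm13 control, and the fitted value was 1.79 on the log2 scale (SE 0.41, adjusted p = 0.00643).

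Among the enzymes and antimicrobial proteins, MPO, which gives neutrophils and pus their green colour, had 13.9 against 6.37 CPM in Molm13 OE, 31.1 against 17.6 CPM in Molm13 control, 44.2 against 15.5 CPM in U937 OE and 50.9 against 36.1 CPM in U937 control. Each heavy pool exceeded its own light pool, although the pools overlapped across lines, and the log2 difference fitted was 1.01 (SE 0.24, adjusted p = 0.00775). RNASE2, the eosinophil-derived neurotoxin, which acts against RNA viruses, had 939 against 317 CPM in Molm13 OE, 1022 against 587 CPM in Molm13 control, 826 against 243 CPM in U937 OE and 1189 against 497 CPM in U937 control. No light pool reached a heavy one, and the log2 difference fitted was 1.35 (SE 0.30, adjusted p = 0.0062). RNASE2 and RNASE3 are paralogues, and how reads shared between them were counted is not stated. LYZ, lysozyme, had 557 against 212 CPM in Molm13 OE, 478 against 379 CPM in Molm13 control, 507 against 175 CPM in U937 OE and 551 against 298 CPM in U937 control. All heavy pools were above all light pools, and the log2 difference fitted was 1.04 (SE 0.29, adjusted p = 0.0167). LYZ shares 599 bases with the antisense gene AC020656.1, which held 40.3% to 68.4% as many counts as LYZ, and the kit does not mark strand, so the LYZ value is uncertain.

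The other 3 genes did not pass. SRGN, serglycin, had 9582 against 3799 CPM in Molm13 OE, 3907 against 4689 CPM in Molm13 control, 8480 against 2464 CPM in U937 OE and 4941 against 3227 CPM in U937 control. Only Molm13 control, the gradient whose light library stood apart, had the lower heavy pool, and the log2 difference fitted was 0.87 (SE 0.37, adjusted p = 0.0966). BPI, the bactericidal protein of Gram-negative defence, had 35.6 against 25.3 CPM in Molm13 OE, 24.0 against 23.1 CPM in Molm13 control, 11.2 against 7.46 CPM in U937 OE and 10.4 against 7.93 CPM in U937 control. The differences were small but positive in 4 of 4 gradients, and the fitted value was 0.39 (SE 0.22, adjusted p = 0.214); BPI also shares 79 bases with an antisense gene. MS4A3, the membrane protein of progenitors, had 19.9 against 37.0 CPM in Molm13 OE, 26.1 against 27.8 CPM in Molm13 control, 8.03 against 12.9 CPM in U937 OE and 58.7 against 107 CPM in U937 control. It was lower in the heavy pool in 4 of 4 gradients, the fitted value being -0.76 (SE 0.47, adjusted p = 0.243).

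**Figure D2:**
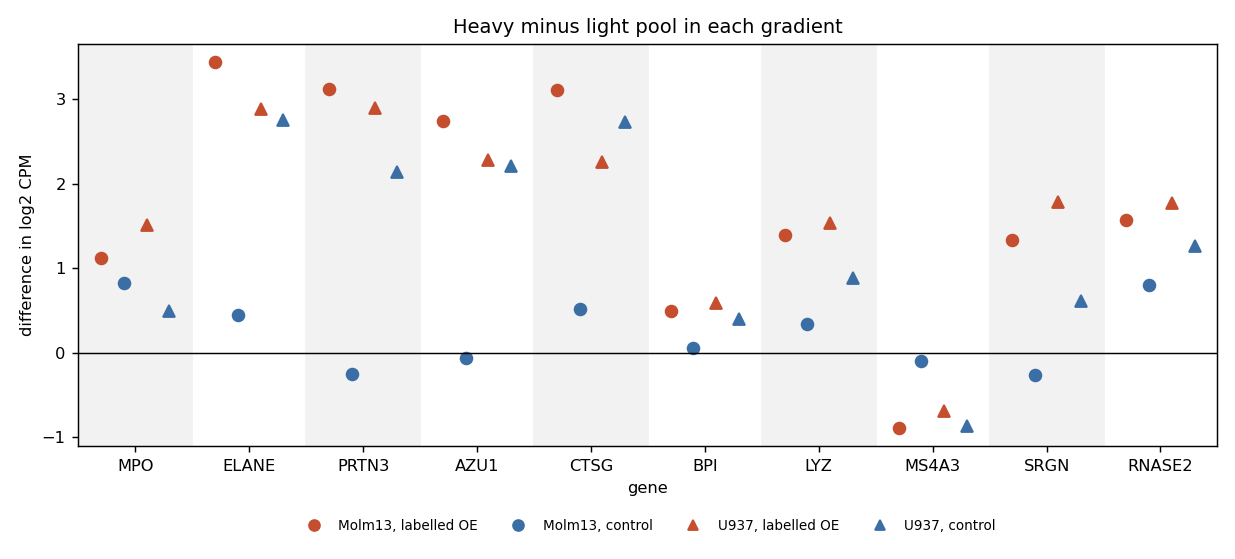
Heavy minus light difference in log2 CPM for each granule gene in each of the 4 gradients (circles Molm13, triangles U937; red labelled OE, blue control). The Molm13 control gradient lies nearest to 0 for ELANE, PRTN3, AZU1 and CTSG, between -0.25 and 0.52, and MS4A3 lies below 0 in 4 of 4 gradients.

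The size of the pool difference depended on the gradient. The median heavy minus light difference of the 10 genes in log2 CPM was 1.48 in Molm13 OE, 0.20 in Molm13 control, 1.77 in U937 OE and 1.07 in U937 control, with medians over all genes of -0.02, -0.04, 0.07 and -0.01 in the same gradients. ELANE differed by 3.43 in Molm13 OE and 0.44 in Molm13 control, and by 2.88 in U937 OE and 2.75 in U937 control. Without the Molm13 control light library 8 of 10 genes were higher and 1, MS4A3, was lower, in a fit that called 38% of all genes, with a median of 1.25 over the granule genes. The count rested more on another library. Without Molm13 OE heavy 3 genes passed (CTSG, ELANE and MPO), with 14.8% of all genes called. CTSG and ELANE passed in every one of the 14 settings with a value.

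**Figure D3:**
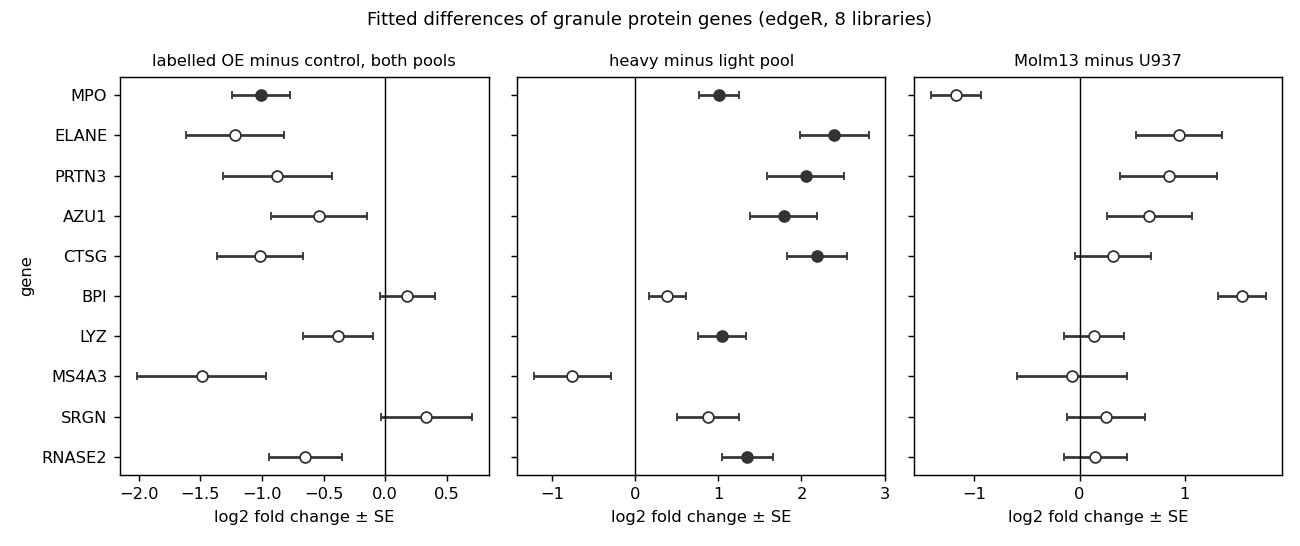
Fitted log2 fold changes with standard errors for the 10 granule genes in the comparisons of pools, genotype labels and line labels, from edgeR on 8 libraries. Pool values lie above 0 for 9 of 10 genes, and genotype values over both pools below 0 for 8 of 10.

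The genotype labels were compared over both pools, with 4 matched pairs of libraries (OE minus control within a line and a pool). Of the granule genes 1, MPO, was lower in the libraries labelled OE and none was higher, in a fit that called 4.37% of all tested genes (2.01% higher, 2.36% lower; 45.9% of calls were higher, and 61% with upper-quartile scaling); 8 of 10 values were negative, with a median log2 fold change of -0.76 against -0.05 over all genes. MPO was at 13.9 against 31.1 CPM in the Molm13 heavy pair, 6.37 against 17.6 CPM in the Molm13 light pair, 44.2 against 50.9 CPM in the U937 heavy pair and 15.5 against 36.1 CPM in the U937 light pair. OE was the lower library in 4 of 4 pairs, by the least in U937 heavy. The fitted difference was -1.01 (SE 0.24, edgeR adjusted p = 0.0358). The call counts the pools of a gradient as independent. With the counts of each gradient summed, the edgeR value was -0.89 (adjusted p = 0.201), in a fit that called 0% of all genes. The MPO call was also lost when any one of 6 libraries was left out (OE heavy, OE light or control heavy of either line). Those fits called fewer of all genes than the main fit too. With 1 library left out, the MPO value ran from -1.18 to -0.85.

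MS4A3 gave the most negative fitted value, -1.49 (SE 0.53, adjusted p = 0.116), and its values differed by line. It had 8.03 against 58.7 CPM in the U937 heavy pair and 12.9 against 107 CPM in the U937 light pair, but 19.9 against 26.1 CPM in the Molm13 heavy pair and 37.0 against 27.8 CPM in the Molm13 light pair. The OE minus control differences were thus -2.87 and -3.05 on the log2 scale in U937 heavy and light, and -0.39 and 0.41 in Molm13 heavy and light. With 1 gradient per line and genotype these are values with no test. Without the Molm13 control light library the fitted value was -2.18 (adjusted p = 0.000335), in a fit that called 12.9% of all genes; MPO passed there too, at -0.97 (adjusted p = 0.0102). Without Molm13 OE light MS4A3 was the gene that passed (-1.95, adjusted p = 0.0435), with 2.84% of all genes called.

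The proteases leaned the same way without passing in the main edgeR fit. ELANE and CTSG did pass, with MPO, in DESeq2 (11.9% of all genes called). They also passed, with MPO and MS4A3, with no filter on low counts (5.15%) and in limma voom with a random gradient effect (13.3%). With upper-quartile scaling or limma voom without that effect only MPO passed, and with summed gradients no gene did. The values of the main fit follow. ELANE stood at -1.22 (SE 0.40, adjusted p = 0.0922), PRTN3 at -0.88 (SE 0.44, adjusted p = 0.268) and AZU1 at -0.54 (SE 0.39, adjusted p = 0.452), and CTSG at -1.01 (SE 0.35, adjusted p = 0.108). In each of these 4 the OE library was lower in 3 of 4 pairs, and the exception was the Molm13 heavy pair, at 0.45 for ELANE, 1.27 for PRTN3, 0.94 for AZU1 and 0.51 for CTSG. RNASE2 was lower in 4 of 4 pairs, by 0.12 to 1.03 on the log2 scale, with a fitted value of -0.65 (SE 0.30, adjusted p = 0.226). LYZ (-0.38, adjusted p = 0.462), BPI (0.18, 0.687) and SRGN (0.33, 0.646) had the fitted values nearest 0. With 1 library left out, the fitted values ran from -1.53 to -0.72 for ELANE and -1.33 to -0.52 for CTSG. The ranges were -1.27 to -0.26 for PRTN3 and -0.83 to -0.056 for AZU1. Without U937 control light, the only light control left was Molm13 control light, the library that stood apart.

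**Figure D4:**
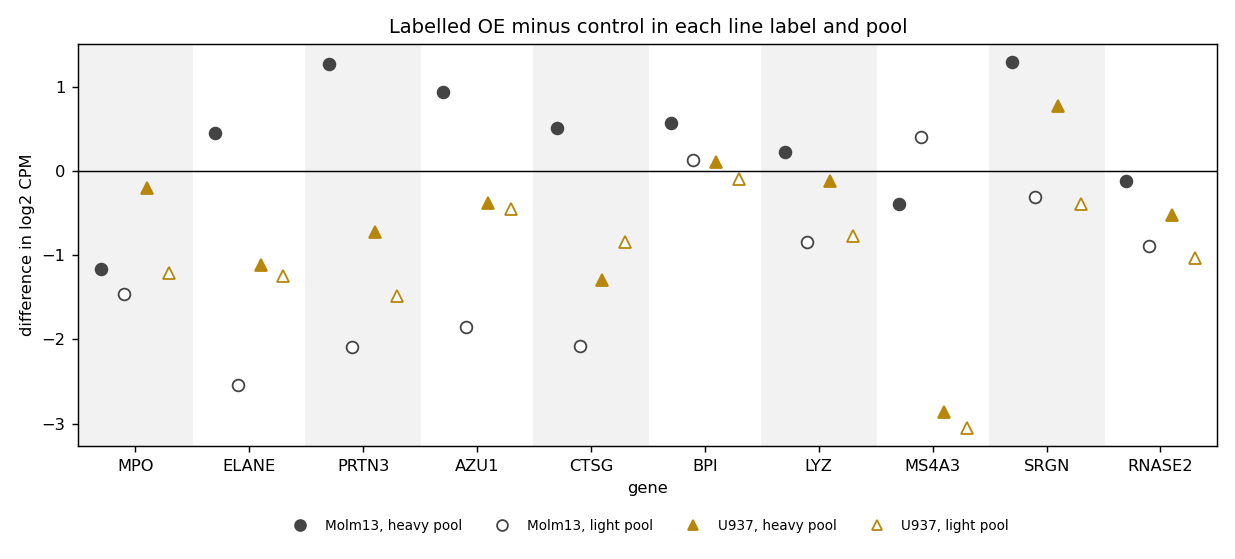
OE minus control difference in log2 CPM for each granule gene in the 4 matched pairs of libraries. In U937 light 10 of 10 genes lie below 0 and in Molm13 heavy 3 of 10 do, and MPO and RNASE2 lie below 0 in 4 of 4 pairs.

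Within the heavy pools 0 of 10 granule genes passed between the labels, where 0.00412% of all genes did (1 of 24289), and their median was -0.15. SRGN had 9582 against 3907 CPM in the Molm13 pair and 8480 against 4941 CPM in the U937 pair. Both heavy OE libraries were above both heavy control libraries, and the fitted value was 1.01 (SE 0.53, adjusted p = 0.393). MS4A3 stood at -1.58 (SE 0.70, adjusted p = 0.304). Without the Molm13 control light library 1 gene, MS4A3, passed in the heavy pools, with 5.96% of all genes called, and the same gene passed without the U937 control light library, with 6.18% called.

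Within the light pools 0 of 10 passed, as did 0% of all genes with edgeR (3604 at an unadjusted p under 0.05, 930 called by DESeq2), but 9 of 10 values were negative, with a median of -1.30 against -0.05 over all genes. ELANE had 295 against 1718 CPM in the Molm13 pair and 178 against 422 CPM in the U937 pair, with a fitted value of -1.99 (SE 0.58, adjusted p = 0.169). PRTN3 stood at -1.84 (SE 0.64, adjusted p = 0.217), CTSG at -1.53 (SE 0.51, adjusted p = 0.2) and MPO at -1.34 (SE 0.34, adjusted p = 0.146). The Molm13 pair contains the control library that stood apart, and it differed by more than the U937 pair for these 4 genes, for ELANE by -2.54 against -1.25. Without that library the median over the granule genes was -0.86 and 1 gene, MS4A3, passed, with 2.12% of all genes called. Without the U937 control light library, the only light control left was the Molm13 one that stood apart. With 1 library left out, values ran from -2.61 to -1.17 for ELANE and -2.32 to -1.22 for PRTN3. The ranges were -2.10 to -0.82 for CTSG and -1.43 to -1.25 for MPO. DESeq2 called 3 (CTSG, ELANE and MPO), with 5.55% of all genes called.

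The difference of these differences is the OE minus control value in the heavy pools minus that in the light pools. A positive value can come from a less negative difference on polysomes, as for ELANE (-0.45 heavy, -1.99 light) and MPO (-0.68, -1.34). It can also come from opposite signs, as for SRGN (1.01 heavy, -0.34 light). In the interaction of pool and genotype 0 of 10 granule genes and 0% of all genes passed with edgeR (1431 of all genes at an unadjusted p under 0.05, 0 of them granule genes, and 6 called by DESeq2). The values were positive for 9 of 10 genes, MS4A3 being the exception at -0.18, with a median of 0.94 against 0.08 over all genes. PRTN3 stood at 1.93 (SE 0.90, adjusted p = 0.791), ELANE at 1.54 (SE 0.81) and SRGN at 1.35 (SE 0.74), with the same adjusted p. The median was 0.66 without the Molm13 control light library. With 1 library left out, values ran from 1.04 to 2.97 for PRTN3, 0.75 to 2.26 for ELANE and 0.65 to 2.19 for AZU1. Without the U937 control light library, the only light control left was Molm13 control light, which stood apart.

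Between the line labels 0 of 10 granule genes passed, as did 0% of all genes. BPI came nearest, at 35.6 against 11.2 CPM in Molm13 and U937 OE heavy, 25.3 against 7.46 CPM in OE light, 24.0 against 10.4 CPM in control heavy and 23.1 against 7.93 CPM in control light. Every Molm13 library was above every U937 library, and the fitted value was 1.54 (SE 0.23, adjusted p = 0.118). MPO was the reverse, lower in Molm13 in 4 of 4 pairs, at -1.18 (SE 0.24, adjusted p = 0.153), with Molm13 control heavy above U937 OE light so that the lines overlapped. BPI passed without the Molm13 control light library (adjusted p = 0.015), with 0.0453% of all genes called. Both BPI and MPO passed without the U937 control light library (0.214% of all genes called), with DESeq2 (1.55%), with no filter on low counts (0.924%) and with limma voom when the gradient was a random effect (0.222%). The other 8 genes lay between -0.07 for MS4A3 and 0.95 for ELANE.

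Across the 8 libraries some granule genes correlated closely with each other and others did not. The 15 pairwise correlations of log2 CPM among ELANE, PRTN3, AZU1, CTSG, LYZ and RNASE2 were 0.903 to 0.981, and those of MS4A3 with the other 9 genes were -0.375 to 0.118. MPO and BPI, both at low levels, correlated at -0.529. The 8 points share 4 gradients and 2 lines, so these are descriptions and carry no test. The genes most like ELANE among 8366 candidates were SCO2, DCPS and MRPL55 (r = 0.996 each), and those most like LYZ were MRPS6 (0.995), ALDH3A2 (0.995) and SPCS1 (0.993). These values lie above the highest of the 15 correlations, 0.981, so close correlation was not particular to granule genes. How many genes correlated this closely was not counted. MPO was closest to GORASP2 (0.987), STRAP (0.976) and SUPT7L (0.974), and SRGN to SUMF1 (0.98), PCYOX1L (0.98) and EMC10 (0.978).

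**Figure D5:**
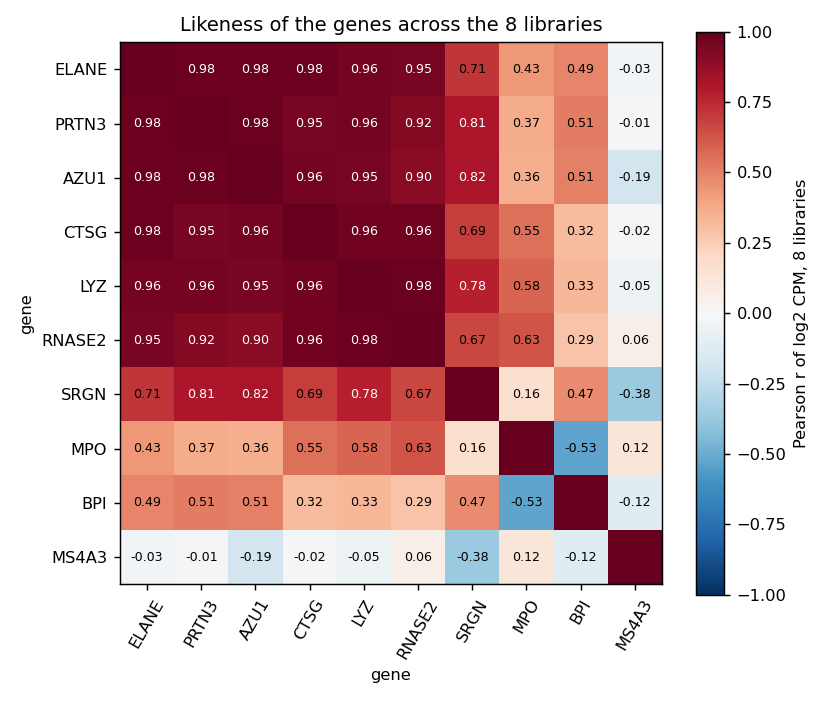
Pearson correlation of log2 CPM over 8 libraries between each pair of granule genes, described without a test. The block of ELANE, PRTN3, AZU1, CTSG, LYZ and RNASE2 lies at 0.903 to 0.981, and MS4A3 lies at or below 0.118 with the others.

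Other genes of granule biology gave the setting for these values, with the heavy against light fit first, where 15.8% of all tested genes were higher. Of 13 azurophil genes outside the set 10 were tested and 5 were higher, among them the serine protease PRSS57 (1.86, SE 0.49), 129598 bases from AZU1 on chromosome 19, the arylsulfatase ARSA (1.73), the carboxypeptidase CTSA (1.16) and CTSC (0.96), the dipeptidase that activates the granule proteases. Of 19 specific and gelatinase granule genes only 10 had enough counts, and 3 were higher, HP (2.26), the cathelicidin CAMP (1.84) and CHI3L1 (1.00). Of 12 inhibitors of granule proteases 3 were higher, SLPI (2.08), cystatin C gene CST3 (1.40) and SERPINB8 (1.13). Of 18 sorting and exocytosis genes 5 were higher, among them the glucose-6-phosphatase G6PC3 (1.45), STXBP2 (1.40), the mannose phosphate receptor IGF2R (1.19) and HAX1 (0.97). Of 11 genes for the folding and haem supply of MPO 7 were higher, among them the chaperones CALR (1.17), PDIA3 (1.12) and HSPA5 (1.07) and the haem enzyme UROD (1.11). Regulators of granule genes had 3 of 11 higher, SPI1 (1.32), IRF8 (1.10) and CEBPD (1.01). Eosinophil and mast cell granule genes had 2 of 6 higher, PRG2 (2.31) and RNASE3 (1.49), and cytotoxic granule genes 1 of 5, NKG7 (1.37). None of the genes in these lists was lower in the heavy pools, and their medians were 0.29 for the regulators to 1.15 for the cytotoxic genes, against -0.04 over all genes. The share called in the cytotoxic list, 1 of 5, was near that of all genes. The specific granule (3 of 10), inhibitor (3 of 12), sorting (5 of 18), regulator (3 of 11) and eosinophil and mast cell (2 of 6) lists exceeded that share by few genes. No list was tested as a set.

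Between the genotype labels over both pools 0 of the tested genes passed in 7 of these lists, the folding and haem list being left aside. That list had a median of -0.29, and the medians of the other lists were -0.24 for eosinophil and mast cell genes to 0.54 for cytotoxic ones. Azurophil genes outside the set had positive values in 6 of 10, led by CD68, a lysosomal membrane protein (1.57, adjusted p = 0.0507). Specific granule genes included QPCT at 1.66 and MMP9 at 2.06, inhibitors A2M at 1.78 and SERPINB8 at -0.79, sorting genes SORT1 at 0.66, and regulators CEBPE at 1.13. None of these passed.

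Among the cell type markers, 2 differed between the genotype labels. Of 6 monocyte markers 5 were tested and 2 were higher in the libraries labelled OE, in the fit that called 2.01% of all genes as higher: ITGAM (1.79, adjusted p = 0.0116) and the costimulatory ligand CD86 (1.33, adjusted p = 0.0343). CSF1R was positive at 1.06 without passing, and FCGR1A (-0.42) and CD14 (-1.56) were negative without passing. The summed monocyte markers were 97.8 to 139 CPM under OE and 33.8 to 94.4 CPM under control, CD163 was at 0 in every library and CD14 was near 0. T and B cell markers summed to 17.2 to 124 CPM under OE and 1.94 to 35.8 CPM under control, mostly from CD3D, with MS4A1 at 0, and 0 of 3 tested passed. Of 7 myeloid markers 0 passed between the labels, and 0 of 1 tested erythroid or megakaryocyte marker did. In the pool comparison the myeloid marker SPI1 and the monocyte marker FCGR1A passed, both higher in the heavy pools. The part of these markers in the values of the granule genes was not tested.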

How the data were processed

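RNA of 8 gradient pools was sequenced using the Smart-seq kit named in the labels' protocols; that chemistry carries no strand information. The authors deposited raw counts of reads for 78932 Ensembl IDs, made with cutadapt, STAR and featureCounts on GRCh38 per the submitters' processing notes. Tool versions, annotation and strandedness of counting are not given in the sources used. Columns were assigned to samples through their names. Symbols were found for 42179 IDs and for 17214 of the 24289 tested.

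Here the counts were tested with edgeR 4.0.16 (R 4.3.3), using filterByExpr, TMM scaling and the quasi-likelihood test with a model of group plus line label (3 residual degrees of freedom, 10.1 prior degrees of freedom, biological coefficient of variation 0.359). Benjamini-Hochberg adjustment ran over all tested genes, with calls at 0.05. CPM uses TMM scaling, and log2 CPM a prior count of 2. DESeq2 1.42.0 and limma 3.58.1 (voom) gave alternatives, together with other scalings, no filter, no line block, summed gradients and each library left out. The line labels pair the libraries, since same-numbered libraries carry the same line label, and deviations from group means correlated at 0.0169 to 0.338 between groups. Between these labels 0 of 24289 genes passed with edgeR and 303 with DESeq2. Molm13 control heavy correlated at 0.971 with U937 control heavy and at 0.951 with Molm13 OE heavy. Whether the labels name different lines was not tested. No separate cultures are described, so p-values reflect only how these libraries vary, and the 2 pools of 1 gradient enter as if independent. Total counts ran from 25741930 to 89373133 per library. The scripts were tested on simulated data.

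The granule genes and the lists of azurophil, specific and gelatinase, inhibitor, sorting, regulator, folding and haem, eosinophil and mast cell, cytotoxic and marker genes were chosen with earlier results of these data known, and so were the motifs. Genes named were the granule genes, OGFOD1, up to 4 genes of smallest p per list and comparison, and the 3 genes most correlated with MPO, ELANE, LYZ and SRGN at a mean of at least 10 CPM; some genes that the rule takes are not reported here.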

Additional observations from a re-analysis of the deposited data

Results flagged for a closer look

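SRGN moved one way with the genotype label in both heavy pairs and the other way in both light pairs. OE minus control was 1.29 (Molm13) and 0.78 (U937) in log2 CPM in the heavy pools, and -0.30 (Molm13) and -0.39 (U937) in the light pools. The fitted interaction was 1.35 (SE 0.74, edgeR adjusted p = 0.791) and did not pass.

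MS4A3 differed between the lines in opposite directions under the 2 genotype labels. Molm13 minus U937 was 1.31 (heavy) and 1.51 (light) in log2 CPM under OE, and -1.17 (heavy) and -1.95 (light) under control. This difference was not tested, since a line and genotype hold 1 gradient.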

How the results depend on the processing

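Of the values of single granule genes, 778 kept their direction and side of the threshold under the alternatives, 42 gained a call, 20 lost one and 27 changed sign; of the counts of genes called and summed levels, 69 stayed within 1.5 times or within the spread of replicates and 26 did not. DESeq2 left some adjusted p unset, and those values are not counted. With no replicate block (the line label dropped) OE against control over both pools called 0 granule genes in place of 1 (MPO -0.89, edgeR adjusted p = 0.278). That fit called 0.478% of all genes. MPO also lost its call for heavy against light (1.01, edgeR adjusted p = 0.104), the block changing no other call. With each gradient summed OE called 0 granule genes and 0% of all genes. It called 4 with no filter (5.15% of all genes called, against 4.37%), 3 with DESeq2 (11.9%) and 4 with limma voom when the gradient was a random effect (13.3%). In the heavy pools no filter called 1 (2.33% of all genes), in the light pools no filter called 1 (1.26%) and DESeq2 3 (5.55%), and between lines no filter (0.924%), DESeq2 (1.55%) and the random gradient effect (0.222%) called 2 each, all against 0. Leaving out 1 library, where the lone library of a group is assumed to vary like the others, gave 3 to 9 for heavy against light, 0 to 4 for OE over both pools, 0 to 1 in the heavy and 0 to 5 in the light pools, 0 to 3 for the interaction and 0 to 2 between lines. Summed gradients reversed the line values of CTSG (-0.22), LYZ (-0.14), MS4A3 (0.059), RNASE2 (-0.20) and SRGN (-0.021), and no filter those of LYZ (-0.063) and PRTN3 (-0.027) for OE in the heavy pools. With 1 library left out, OE values in the heavy pools ran from -0.45 to 0.95 for AZU1, -1.22 to 0.36 for CTSG, -1.15 to 0.41 for ELANE, -0.18 to 0.21 for LYZ and -0.75 to 1.23 for PRTN3, and in the light pools from -0.13 to 0.17 for BPI and -2.55 to 0.022 for MS4A3. MS4A3 also ran from -0.67 to 0.59 between lines, -1.36 to 0.11 for heavy against light and -1.86 to 1.20 for the interaction, and CTSG from -0.0082 to 0.73 between lines. Upper-quartile scaling moved the median of all genes for heavy against light to -0.22, against -0.04, and the higher share of all calls to 39.7%, against 55.3% (for OE over both pools 61% against 45.9%), and called the same 7 granule genes in heavy against light. The cause was not tested. Groups of 2 libraries, with pools sharing a gradient, limit all of these calls.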
